A study of Macaca fascicularis with 11 samples.

Results

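MIXL1-positive, MESP1-negative transition-like cells are epiblast-class cells of the cultured cynomolgus embryo that hold at least 1 transcript of MIXL1 and none of MESP1 or ISL1. They were chosen from 4 scores per cell, each the mean of ln(1 + 10000 × UMIs of a gene / UMIs of the cell) over a short list of trophoblast, epiblast, extraembryonic mesenchyme or endoderm genes, where a UMI (unique molecular identifier) stands for 1 captured molecule. A member had the epiblast score (POU5F1, IFITM1, L1TD1, DPPA4 and DNMT3B) as its highest, at least 1 UMI of MIXL1, and 0 UMIs of MESP1 and of ISL1. This gave 374 members, which are 12.4% of the 3026 epiblast-class cells and 1.12% of all 33330 cells. Of the other epiblast-class cells, 1799 had no UMI of MIXL1, MESP1 or ISL1 (MIXL1-negative cells), 311 held both MIXL1 and MESP1 without ISL1 (MESP1-positive cells), 69 held MESP1 without MIXL1 or ISL1, and 473 held ISL1.

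The cells come from blastocysts that were frozen, thawed and grown in vitro to Day 10, Day 12 or Day 14, dissociated and profiled with droplet single-cell RNA sequencing. Genotype and day defined the groups: wild type with 2 libraries for each of the 3 days, and ISL1 hypomorphic mutant with 1 library for Day 10 and 2 for each of the later days. Mutant embryos had been injected at the zygote stage with Cas9 and a pair of guide RNAs against ISL1, a transcription factor gene that marks the amnion here, and were mosaic for the edits. A library pooled 1 to 3 embryos, 12 wild-type and 11 mutant embryos in all, and carries a batch number, 1 or 2, in its label. The labels do not say whether a number is the same batch in both genotypes. The libraries held 325 to 9625 cells, and the median member held 10514 to 139712 UMIs, fewest in the mutant Day 14 libraries, so that depth and genotype cannot be told apart in part of the comparisons. The edit could not be checked in the members, in which ISL1 is at 0 by the rule, and the 3′ counts need not lie within the edited stretch. ISL1-positive epiblast-class cells were found in every library, 3 to 54 per wild-type and 29 to 88 per mutant library. Replicate libraries come from different embryos.

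During gastrulation, epiblast cells leave an epithelium through the primitive streak and become mesoderm or endoderm. NODAL, WNT and BMP signals turn on streak transcription factors in these cells, with EOMES and MIXL1 among the early ones and MESP1 in nascent mesoderm, while pluripotency factors such as NANOG fall. Cells caught between both programmes express parts of each.

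Members were few in most libraries. Wild-type batches 1 and 2 held 33 and 63 members at Day 10, then 6 and 27 on Day 12, and 121 and 8 on Day 14. The mutant library of Day 10 held 32, batches 1 and 2 of Day 12 held 45 and 14, and those of Day 14 held 22 and 3. The wild-type Day 14 batch 1 library alone thus gave more members than all mutant libraries together, and wild-type libraries gave 258 of the 374. Only 2 members shared a barcode with a cell of another library, of 124 barcodes found in at least 2 libraries.

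The share of members among epiblast-class cells was lower in mutant than in wild-type libraries. On Day 10 it was 15.1% (exact binomial 95% interval, 10.6 to 20.5) in wild-type batch 1, 20.7% (16.3 to 25.6) in wild-type batch 2 and 13.4% (9.34 to 18.4) in the mutant. On Day 12 it was 40.0% (16.3 to 67.7) in wild-type batch 1, 17.2% (11.6 to 24.0) in wild-type batch 2, 6.45% (4.74 to 8.53) in mutant batch 1 and 5.05% (2.79 to 8.33) in mutant batch 2. On Day 14 it was 21.6% (18.3 to 25.3) in wild-type batch 1, 7.08% (3.11 to 13.5) in wild-type batch 2, 6.16% (3.90 to 9.18) in mutant batch 1 and 3.45% (0.717 to 9.75) in mutant batch 2. Within each day both wild-type values were above the mutant ones, while over all days the wild-type Day 14 batch 2 library lay below the mutant Day 10 library. The mean difference within days was -12.3 percentage points (two-sided exact permutation test of genotype within day over 11 libraries, p = 0.0278, where the smallest p the design allows is 0.00926). Among libraries numbered batch 1 the difference was -16.9 points (exact permutation p = 0.250, the smallest possible). Among those numbered batch 2 it was -7.89 points (exact permutation p = 0.5, the smallest possible). Equal numbers need not be the same batch in both genotypes, so these values may not hold batch constant. The rule asks for 0 UMIs of ISL1, the edited gene, while the epiblast-class cells counted here include ISL1-positive ones. On Day 14 these were 54 of 559 and 35 of 113 in wild-type batches 1 and 2, and 75 of 357 and 39 of 87 in mutant batches 1 and 2. Their part in the difference was not tested. The other genotype comparisons of members are also restricted to cells without ISL1.

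That share depends on depth and on how many UMIs of MIXL1 are asked for. With every epiblast-class cell thinned to 10000 UMIs, which left out 392 cells (217 of them in mutant Day 14 batch 1, 22 each in wild-type Day 14 batch 1 and mutant Day 14 batch 2, 78 and 49 in mutant Day 12 batches 1 and 2, and 4 in wild-type Day 12 batch 2), it was 5.22%, 7.40%, 13.3%, 13.8%, 19.7% and 5.36% in wild type (batches 1 and 2 of Day 10, Day 12 and Day 14 in turn), and 2.89%, 4.66%, 3.95%, 7.69% and 1.56% in the mutant. The thinned difference was -6.87 points (exact permutation p = 0.0278), with the mutant Day 14 batch 1 library now above wild-type Day 14 batch 2. With at least 3 UMIs of MIXL1 required it was -3.21 points (exact permutation p = 0.296). With an epiblast score of at least 1.5 it was -12.5 points (exact permutation p = 0.0741). Mutant Day 10 (14.4%) then lay above wild-type Day 10 batch 1 (12.1%) and mutant Day 14 batch 1 (10.1%) above wild-type Day 14 batch 2 (8.42%). Leaving out mutant Day 12 batch 1 or batch 2 raised the p to 0.0741 each, and leaving out mutant Day 10 batch 1 or mutant Day 14 batch 2 raised it to 0.0556 each. Without mutant Day 10 batch 1, 0.0556 is the smallest p that the remaining libraries allow.

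Droplets also take up free RNA, an estimate of which had been subtracted from these counts. The share of cells with MIXL1 was set beside that of trophoblast-class cells of the same library as a reference. MIXL1 was at 1.34 to 4.35 CPM in trophoblast-class cells, beside 2.82 to 298 CPM in epiblast-class cells. Whether the trophoblast-class level is free RNA was not tested. In wild type 30.1%, 42.6%, 53.3%, 42.0%, 55.6% and 18.6% of epiblast-class cells held MIXL1, against 18.0%, 24.3%, 21.8%, 13.7%, 8.54% and 4.18% of trophoblast-class cells. In the mutant it was 18.4%, 10.0%, 7.58%, 6.72% and 5.75% of epiblast-class cells, against 27.6%, 5.75%, 3.39%, 3.99% and 3.59%. At Day 10 the mutant epiblast-class share was thus below the trophoblast-class share, and after thinning the values were 3.72% and 4.63%. The share of epiblast-class cells with MIXL1 in that library was therefore not above this reference. The share of cells with at least 3 UMIs of MIXL1 was also lower there in epiblast-class (5.44%) than in trophoblast-class cells (6.36%). The summed level went the other way in that library, at 8.38 CPM in epiblast-class and 4.19 CPM in trophoblast-class cells. Of its members, 2 held at least 10 UMIs of MIXL1, with 40 in the highest. Median depths were 7772 to 132920 UMIs in epiblast-class and 11379 to 143839 in trophoblast-class cells.

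**Figure D1:**
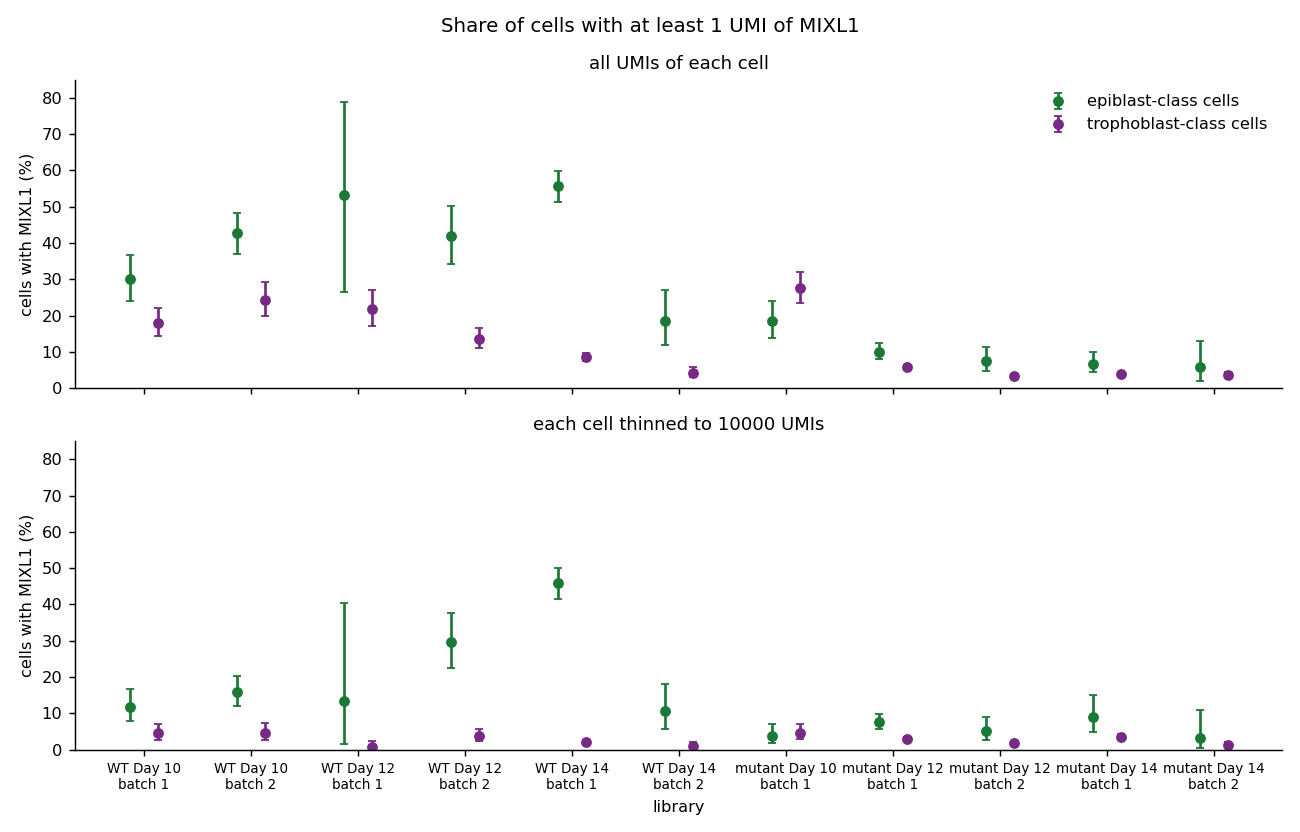
Share of cells with at least 1 UMI of MIXL1 (y axis, percent) in epiblast-class and trophoblast-class cells of each library (x axis), for all UMIs (top) and after thinning each cell to 10000 UMIs (bottom); bars are exact binomial 95% intervals, which cover counting error only. Thinned, 45.8% of epiblast-class against 2.09% of trophoblast-class cells held MIXL1 in wild-type Day 14 batch 1, and 3.72% against 4.63% in the mutant Day 10 library.

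Most members were just inside the rule. 205 of the 374 (54.8%) held exactly 1 UMI of MIXL1, 52 held 2, 117 held at least 3 and 50 at least 10, with 104 UMIs in the highest cell. Of the 50 highest, 41 came from wild-type Day 14 batch 1, where 27.3% of the members held 1 UMI, against 44.4% to 83.3% in the other wild-type libraries and 63.6% to 100% in mutant libraries. Over all libraries together the median member with 1 UMI of MIXL1 held 45398 UMIs and the median member with at least 10 held 46251, values that mix libraries of different depth. The part of depth within a library was not tested. The epiblast score was clearly ahead in most members, with a median lead of 1.88 over the next score, and 25 members led by less than 0.5, of which 8 and 15 were in wild-type Day 10 batches 1 and 2.

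The wild-type Day 10 members fell into a low and a high set by their epiblast score. In batches 1 and 2, 15 of 33 and 18 of 63 members scored under 1.5, a value chosen after the scores were seen. Under it were 0 of 6 and 2 of 27 wild-type members of Day 12, 10 of 121 and 0 of 8 of Day 14, and 2 of 32, 7 of 45, 3 of 14, 0 of 22 and 0 of 3 in the mutant libraries. The median trophoblast score of the low-score Day 10 members was 0.517 and 0.507, against 0.161 and 0.151 in the others. NANOG was at 17.4 and 6.30 CPM (counts per 1000000 UMIs of the summed cells) in the low-score members of the 2 libraries and at 336 and 440 CPM in the others. GDF3, a ligand of the NODAL pathway, was at 0 and 4.20 CPM against 53.6 and 71.0 CPM. S100A14, a calcium-binding protein gene, went the other way, at 401 and 954 CPM against 0.744 and 5.99 CPM. The wild-type Day 10 members thus differed in makeup from those of the later days, by a score that the rule used. Scores under 1.5 were not particular to the members of these 2 libraries. They were found in 38 of 131 and 39 of 132 MIXL1-negative cells and in 7 of 22 and 26 of 46 MESP1-positive cells. Comparisons are also given for cells that scored at least 1.5, except that of members by their MIXL1 level.

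**Figure D2:**
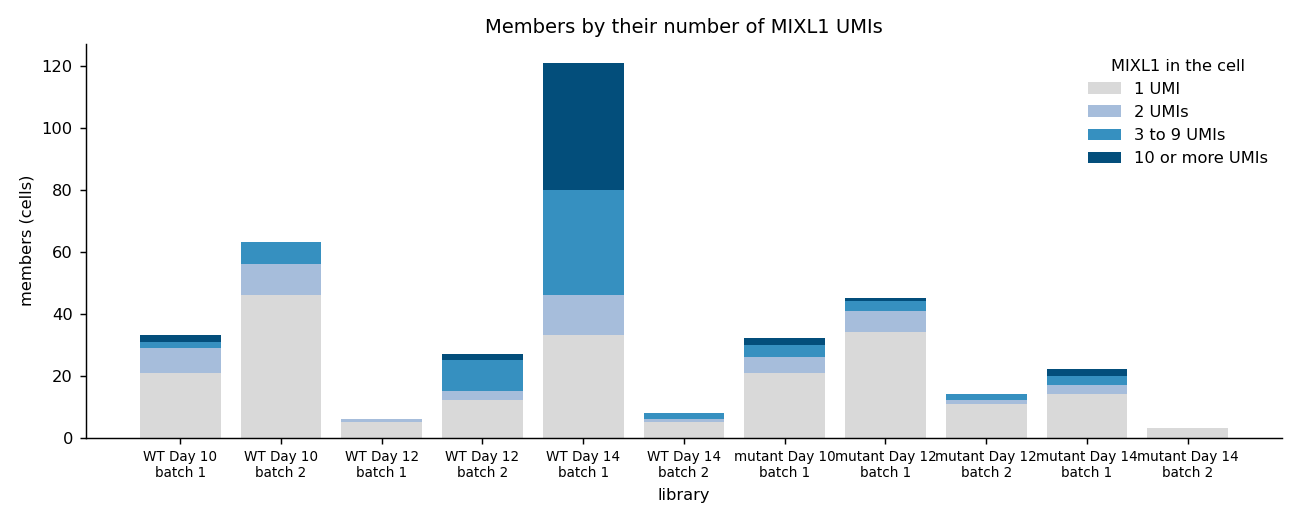
Number of members per library (y axis, cells) divided by how many UMIs of MIXL1 the cell held. Wild-type Day 14 batch 1 holds 41 of the 50 members with 10 or more UMIs, and 205 of all 374 members hold 1 UMI.

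Around each threshold the levels of genes outside the rule were as follows, over all libraries together and as a description, in CPM. EOMES, the T-box factor of early mesoderm and endoderm (ENSMFAG00000002012), was at 2.03 CPM in MIXL1-negative cells, 5.79 CPM in members with 1 UMI of MIXL1 and 28.9 CPM in members with at least 3. In cells left out for 1 UMI of MESP1 (48 cells) EOMES was at 26.1 CPM, and at 11.4 to 49.9 CPM in the libraries with at least 5 such cells. In those left out for 1 UMI of ISL1 (28 cells) it was at 19.3 CPM. Of its 43 UMIs there, 21 came from wild-type Day 12 batch 2, and the 2 libraries with at least 5 such cells were at 6.76 and 3.37 CPM. MIXL1 itself was at 17.7 CPM in members with 1 UMI, 302 CPM in members with at least 3 and 473 CPM in MESP1-positive cells, and at 2.88 CPM in trophoblast-class cells. These pooled values weigh libraries by their UMIs and mix libraries of different makeup. Within wild-type Day 10 batch 2, EOMES was at 0.0899 CPM in MIXL1-negative cells, 2.88 CPM in members with 1 UMI and 4.26 CPM in members with at least 3.

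The markers given with the name were EOMES, GDF3 and POU5F1 beside MIXL1. GDF3 was at 41.3 CPM in the members over all libraries and 0.376 CPM in trophoblast-class cells, and EOMES was at 12.7 CPM against 0.137 CPM. POU5F1, a core pluripotency factor that the rule used, was at 1306 CPM against 4.65 CPM. These pooled values do not hold for the low-score wild-type Day 10 members. There POU5F1 was at 172 and 187 CPM in batches 1 and 2, against 1705 and 1618 CPM in the other members, and GDF3 was at 0 and 4.20 CPM. EOMES was at 6.51 and 2.10 CPM in these low-score members, against 2.23 and 2.78 CPM. EOMES was nevertheless at 0 UMIs in the members of wild-type Day 12 batch 1 and mutant Day 14 batch 2. TBXT, the classical streak marker, was at 0.441 to 7.87 CPM where found. It was at 0 in wild-type Day 12 batch 1 and in all 4 mutant libraries of Day 12 and Day 14. There 3 UMIs correspond to 3.65 CPM in the wild-type library and to 3.32, 13.6, 10.5 and 55.1 CPM in the mutant ones. TBXT at the levels found elsewhere could thus be missed. The name transition-like therefore rests on EOMES and not on TBXT, with EOMES found in 9 of 11 libraries, of which mutant Day 12 batch 2 had 2 UMIs of it, under a floor of 3 UMIs, and wild-type Day 14 batch 2 had 3, at that floor.

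The question of what sets the members apart from other epiblast-class cells was addressed by comparing summed UMI counts of members and MIXL1-negative cells in the 10 libraries with at least 5 of each (edgeR, library as a block). The 28 genes of the rule were left out. Members were higher in streak factors and in components of NODAL signalling: EOMES, SP5, FOXH1, GDF3 and PMEPA1 all rose. In all, 78 of 8385 genes passed a false discovery rate of 1% (0.93% of the genes tested), 60 higher (0.716%) and 18 lower (0.215%) in the members. Among genes with a symbol, from which all listed genes come, 43 of 740 passed, a larger share to set list counts beside. A gene passed the filter on low counts in either state. Sums held 220137 to 6104019 UMIs in the members, so that 3 UMIs correspond to 0.491 to 13.6 CPM.

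EOMES rose in the members. In wild-type members EOMES was at 3.97 and 2.62 CPM at Day 10, 0 and 47.6 CPM at Day 12 and 23.4 and 12.6 CPM at Day 14, and in mutant members at 9.25 CPM at Day 10, 15.5 and 9.09 CPM at Day 12 and 31.4 CPM at Day 14 (batch 1). In MIXL1-negative cells of the same libraries EOMES was at 1.59, 0.0899, 0, 8.24, 2.20, 6.08, 0.676, 3.79, 4.64 and 2.11 CPM. EOMES was higher in the members in 9 of 10 libraries and at 0 in both states in the other one. In mutant Day 12 batch 2 its level came from 2 UMIs, under the floor of 3, and in wild-type Day 14 batch 2 from 3 UMIs. The ranges of the 2 states overlapped, since wild-type Day 10 members were lower than MIXL1-negative cells of some other libraries. The log2 fold change was 2.66 ± 0.27 (SE, adjusted p = 1.25e-05, edgeR quasi-likelihood test with Benjamini-Hochberg adjustment). EOMES was still called in the fits that left out a library, except that without mutant Day 12 batch 2 it was below the filter and not tested, as it was without both wild-type Day 14 libraries.

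SP5 (ENSMFAG00000000803), a direct WNT target and repressor, was at 8.38, 5.57, 1.22, 30.1, 94.8 and 21.0 CPM in the wild-type members and at 24.5, 19.9, 36.3 and 38.4 CPM in the mutant members. In MIXL1-negative cells SP5 was at 2.60, 0.989, 2.06, 10.8, 10.0 and 13.7 CPM in wild type and at 3.60, 7.58, 34.6 and 6.33 CPM in the mutant. SP5 was higher in 9 of 10 libraries, furthest in wild-type Day 14 batch 1 and not in wild-type Day 12 batch 1. Its log2 fold change was 2.08 ± 0.32 (adjusted p = 0.00718, edgeR), and it lost the call without any of 8 libraries (adjusted p of 0.0121 to 0.0353), being kept without wild-type Day 14 batch 1 or mutant Day 12 batch 2.

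GDF3 was at 31.8, 55.4, 15.8, 35.0, 39.5 and 42.0 CPM in the wild-type members and at 35.6, 22.15, 59.05 and 52.3 CPM in the mutant members. In MIXL1-negative cells it was at 24.7, 37.4, 16.4, 26.9, 16.4 and 23.5 CPM in wild type and at 16.7, 24.6, 36.8 and 13.1 CPM in the mutant. GDF3 was higher in the members in 8 of 10 libraries, and the values of the 2 states overlapped. The log2 fold change was 0.69 ± 0.14 (adjusted p = 0.00734, edgeR), a call that was lost without any of wild-type Day 10 batch 2, wild-type Day 12 batch 2, wild-type Day 14 batch 1 or 2, mutant Day 10 or mutant Day 12 batch 2 (adjusted p of 0.0129 to 0.0353).

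Of the 12 NODAL and TGF-beta genes listed, 5 had an identifier and were tested, of which 4 rose and 1 did not pass. PMEPA1, a feedback inhibitor of TGF-beta signalling, rose by 0.82 ± 0.11 on the log2 scale. FOXH1, the DNA-binding partner of SMADs, rose by 0.30 ± 0.06, and GDF3 was also among those that rose. The list's median was 0.69, beside -0.01 over all genes tested. PMEPA1 was higher in 10 of 10 libraries, from 14.25 to 72.7 CPM in members against 6.16 to 51.4 CPM in MIXL1-negative cells. FOXH1 was near its threshold (adjusted p = 0.00773, edgeR) and lost the call without 9 of the 10 libraries.

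Of the 17 streak transcription factors listed, 7 were tested and 4 rose, among them EOMES, SP5 and FOXH1, with a list median of 1.39, and FOXH1 counts in both lists. TBXT, GSC, LHX1, MESP2 and HES7 were below the filter in this comparison. Of the 18 CDX and HOX genes, 7 were tested and HOXB6 rose by 1.78 ± 0.22 (adjusted p = 2.62e-05, edgeR), with a list median of 1.55. HOXB6 was at 0 to 25.2 CPM in members and 0 to 12.15 CPM in MIXL1-negative cells, higher in 8 of 10 libraries. CDX2, which specifies posterior identity, had a value of 1.14 ± 0.37 (adjusted p = 0.212, edgeR), higher in 7 of 10 libraries, and CDX4 one of 1.55 ± 0.30 (adjusted p = 0.0251, edgeR). Of the 17 WNT genes, 6 were tested and SP5 rose, with a list median of 0.47. Among 8 tested BMP genes none passed in edgeR, 3 had an unadjusted p under 0.05 and DESeq2 called 1, and BMP4 had a value of 1.35 ± 0.26 (adjusted p = 0.0264, edgeR). Among 6 tested FGF genes none passed in edgeR or DESeq2 and 1 had an unadjusted p under 0.05.

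Few pluripotency genes were called against MIXL1-negative cells. Of 20 listed genes 11 were tested and only ZIC2, a zinc finger factor of the epiblast, rose, by 0.63 ± 0.13 (adjusted p = 0.00887, edgeR), with a list median of -0.25. The ZIC2 call was lost without any of 8 libraries (adjusted p of 0.0123 to 0.0977, edgeR) and kept without either wild-type Day 10 library. NANOG had a value of -0.25 ± 0.06 (adjusted p = 0.0254, edgeR) and was lower in 9 of 10 libraries, and USP44 one of -0.77 ± 0.19 (adjusted p = 0.0828, edgeR), lower in 10 of 10. CRABP2, which binds retinoic acid, rose by 0.54 ± 0.10 (adjusted p = 0.00326, edgeR) and was the only gene called of 5 linked to the primed state. That list went the other way, with a median of -0.33 and CRABP2 the only 1 of the 5 above 0. Of the 5 genes, 4 had an unadjusted p under 0.05 (edgeR). The CRABP2 call was lost without wild-type Day 12 batch 2, either mutant Day 12 library or mutant Day 14 batch 1 (adjusted p of 0.0101 to 0.0129, edgeR). A list that the study named for its transition cells had 18 tested genes, of which GDF3 and CCDC137 rose (median 0.17); it was chosen on these samples and is not independent evidence of its direction.

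Among the 43 called genes with a symbol, others that rose with the same sign in every library were AP3B2, a vesicle adaptor subunit, by 1.78 ± 0.26, PRKD1, a protein kinase, by 1.32 ± 0.17, CACHD1 by 1.22 ± 0.18, ERICH2 by 1.18 ± 0.18, the planar polarity gene VANGL1 by 1.15 ± 0.20, the ephrin receptor EPHA1 by 1.09 ± 0.17, SNX10 by 0.83 ± 0.15, and FABP3 and CYB5A by 0.38 each, with SE of 0.07 and 0.06. Calls of these genes were lost in edgeR without any of 8 libraries for SNX10 (adjusted p up to 0.0547; kept without wild-type Day 10 batch 1 or Day 14 batch 1), 7 for ERICH2 (up to 0.0306; kept without wild-type Day 10 batch 2, Day 14 batch 1 or mutant Day 12 batch 1) and 6 for AP3B2 (up to 0.0277; kept without wild-type Day 10 batch 2, Day 12 batch 1 or either Day 14 library). EPHA1 lost the call without mutant Day 10 or mutant Day 12 batch 1 (up to 0.0146) and VANGL1 without wild-type Day 14 batch 1 (0.0143). SEPHS1 fell in all 10 libraries, by 0.33 on the log2 scale (SE 0.05, adjusted p = 0.00117, edgeR). SKA1, a kinetochore gene, rose by 1.60 ± 0.22 in 9 of 10 libraries and was the only one of 17 tested cell cycle genes called.

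Fewer genes were called with the members of 1 UMI alone, which are also fewer cells. With only the members that held exactly 1 UMI of MIXL1 set against MIXL1-negative cells, edgeR called 0 of 7710 genes, and 377 had an unadjusted p under 0.05. In that comparison the log2 fold change was 0.72 for SP5 (adjusted p = 0.752, edgeR), 0.15 for GDF3 (adjusted p = 0.999, edgeR), 0.07 for FOXH1 (adjusted p = 0.999, edgeR) and 0.49 for PMEPA1 (adjusted p = 0.201, edgeR). EOMES was below the filter there. With at least 3 UMIs required in members, 171 genes were called, with EOMES at 4.16 (adjusted p = 9.49e-06, edgeR) and GDF3 at 1.46 (adjusted p = 8.38e-04, edgeR).

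Leaving out 1 library lowered the number of calls by over 1.5 times for wild-type Day 12 batch 2 (37 genes), wild-type Day 14 batch 1 (44) or batch 2 (49), mutant Day 10 (35), and mutant Day 12 batch 1 (39) or batch 2 (50), and without both wild-type Day 14 libraries 24 genes were called. With an epiblast score of at least 1.5 in both states 90 genes were called, 47 of them among the 78. EOMES (2.68), GDF3 (0.72) and PMEPA1 (0.78) kept the call there. It was lost by SP5 (adjusted p = 0.0263, edgeR), FOXH1 (0.238), CRABP2 (0.0514), AP3B2 (0.0261), ERICH2 (0.0260), EPHA1 (0.0146), SNX10 (0.0151), FABP3 (0.120), SEPHS1 (0.0195) and SKA1 (0.0167). No gene passed without the library as a block (167 with an unadjusted p under 0.05, edgeR).

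**Figure D3:**
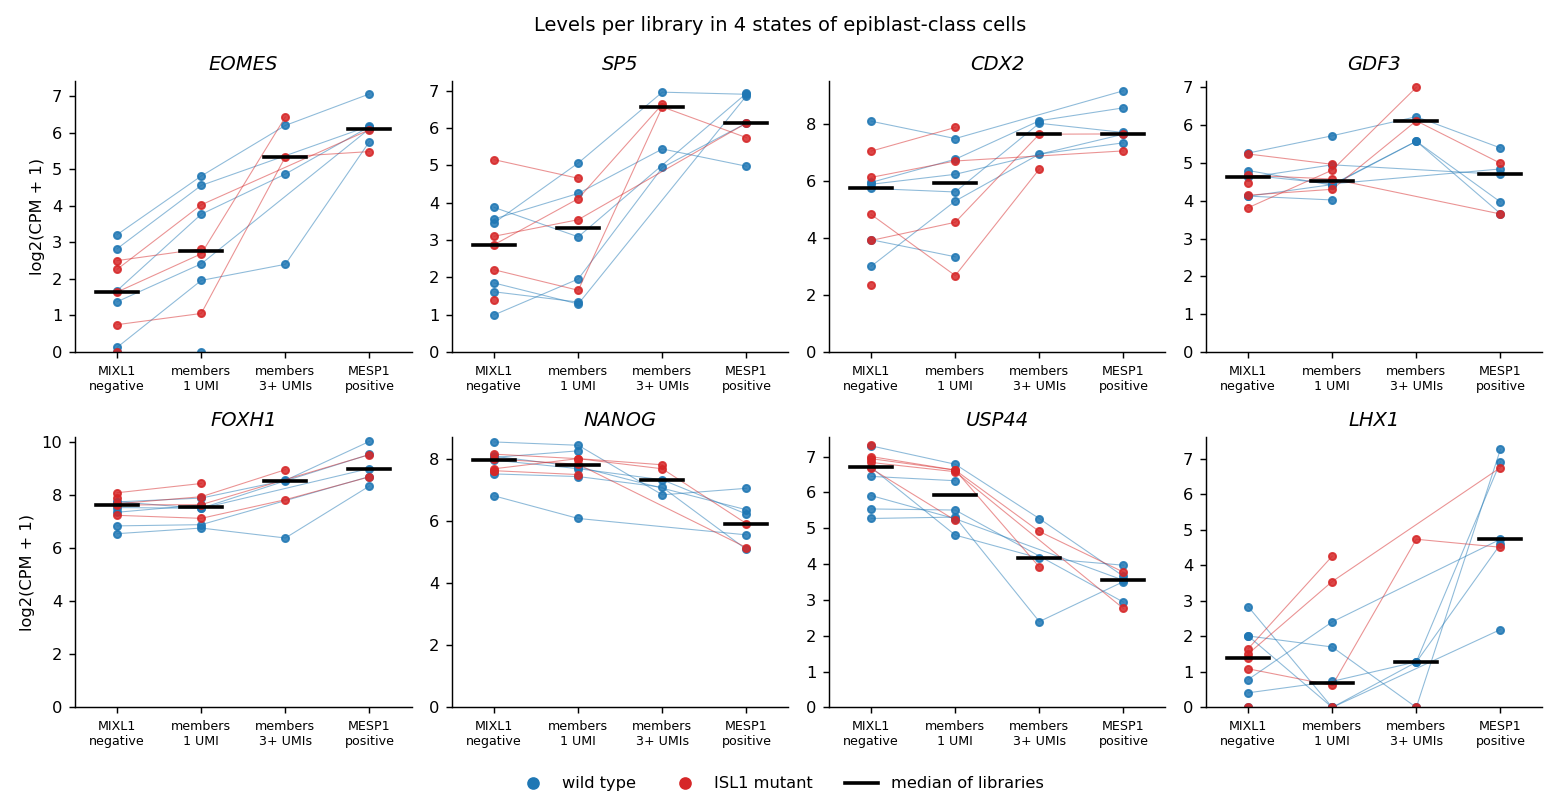
Levels of 8 genes (y axis, log2(CPM + 1)) in MIXL1-negative cells, members with 1 UMI of MIXL1, members with at least 3, and MESP1-positive cells; each point is a library with at least 5 such cells, lines join the states of a library and black bars are medians. CDX2 is higher in members with at least 3 UMIs than in those with 1 UMI in the 5 libraries that hold both, and over all libraries together LHX1 is higher among MESP1-positive cells (75.4 CPM over all libraries against 2.07 CPM in all members).

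Within the members, those with at least 3 UMIs of MIXL1 were therefore set against those with 1 UMI in the 5 libraries that had at least 5 of each, a comparison added after the data were seen. In wild-type Day 10 batch 2 the 7 members with at least 3 UMIs had epiblast scores of 0.698, 0.783, 0.826, 1.15, 1.38, 2.24 and 2.31. MIXL1 level and a low epiblast score are thus mixed in that library. The setting with a score of at least 1.5 was not run here, and the part of low-score members was not tested. Of 5352 genes 16 were called (0.299%), 10 higher and 6 lower. CDX2 was at 261, 278, 123, 200 and 84.9 CPM in the members with at least 3 UMIs (wild-type Day 10 batch 2, Day 12 batch 2 and Day 14 batch 1, mutant Day 10 and mutant Day 14 batch 1), against 48.2, 108, 38.5, 22.5 and 5.42 CPM in the members with 1 UMI. CDX2 was higher in 5 of 5 libraries, by 2.18 ± 0.26 on the log2 scale (adjusted p = 0.00544, edgeR), although the ranges of the 2 groups overlapped.

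EVX1, a homeobox gene of the posterior streak, rose by 1.51 ± 0.25 (adjusted p = 0.00906, edgeR), from 3.22 to 47.3 CPM up to 25.6 to 113 CPM. ACTC1 rose by 2.46 ± 0.32, SKA1 by 2.40 ± 0.27, CACHD1 by 2.22 ± 0.35 and AP3B2 by 1.99 ± 0.20. USP44, a deubiquitinase of undifferentiated cells, fell by 1.77 on the log2 scale (SE 0.25, adjusted p = 0.00411, edgeR), from 27.1 to 109 CPM down to 4.26 to 37.6 CPM. SFRP1, a secreted WNT antagonist, fell by 2.25 (SE 0.32) and IGFBP6, which binds insulin-like growth factors, by 2.10 (SE 0.28), each in 5 of 5 libraries. The count of calls was 8 without wild-type Day 14 batch 1, 6 without mutant Day 10, 3 without mutant Day 14 batch 1 and 46 without wild-type Day 12 batch 2, and DESeq2 called 61. Without mutant Day 14 batch 1, CDX2, EVX1, USP44, SFRP1, ACTC1, SKA1 and CACHD1 lost the call (adjusted p of 0.0101 to 0.0259, edgeR), CDX2 also without wild-type Day 10 batch 2, EVX1 also without wild-type Day 10 batch 2, wild-type Day 14 batch 1 or mutant Day 10, and USP44 also without the last 2 of these. IGFBP6 lost it without wild-type Day 10 batch 2 or mutant Day 10 (adjusted p up to 0.0475, edgeR). EOMES was at 4.26, 72.2, 28.1, 39.3 and 84.9 CPM against 2.88, 27.05, 12.6, 1.07 and 5.42 CPM, higher in 5 of 5 libraries, with a value of 1.88 ± 0.50 (adjusted p = 0.120, edgeR).

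How far the members lie from cells that already hold MESP1 was asked in the 7 libraries with at least 5 cells of both kinds. NANOG, USP44 and other pluripotency genes were higher in the members (5 of 11 tested, with 1 lower), and genes of the streak (6 of 10 lower), of the CDX and HOX families (9 of 12) and, in smaller part, of the WNT (4 of 8, with 1 higher) and BMP (3 of 9) pathways were lower. Most of these calls were lost with at least 3 UMIs of MIXL1 in both states, where 9 genes were called in all. Of 7533 genes 537 were called (7.13%), 260 higher (3.45%) and 277 lower (3.68%) in the members. Listed genes come from those with a symbol, of which 182 of 730 were called. Counts of called list genes are to be read beside that larger share, and the BMP count (3 of 9) lay near it. The member cells are the same as in the comparison with MIXL1-negative cells, so the values of the 2 comparisons share them.

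Among pluripotency genes 11 were tested, 5 were higher and 1 (ZIC2) was lower in the members, with a median of 0.87 beside 0.01 over all genes. NANOG (ENSMFAG00000041377) was at 206, 338, 176, 149 and 96.6 CPM in wild-type members (both Day 10 libraries, Day 12 batch 2 and both Day 14 libraries) and at 255 and 222 CPM in mutant members (Day 10 and Day 12 batch 1). In MESP1-positive cells of these libraries NANOG was at 82.1, 133, 74.5, 33.2, 46.4, 59.9 and 34.7 CPM. It was higher in the members in all 7, and the ranges overlapped only because wild-type Day 14 batch 2 members and Day 10 batch 2 MESP1-positive cells were close. The difference was 1.71 ± 0.15 on the log2 scale (adjusted p = 1.81e-05, edgeR). USP44 was higher by 2.21 ± 0.20, DPPA5 by 1.15 ± 0.12, TERF1, a telomere-binding protein, by 0.87 ± 0.14 and DPPA2 by 0.72 ± 0.15. DPPA2 lost the call without either wild-type Day 10 library or wild-type Day 14 batch 1 (adjusted p up to 0.0358, edgeR), TERF1 without wild-type Day 14 batch 2 (0.0137) and ZIC2 without wild-type Day 14 batch 1 (0.0191).

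Streak transcription factors were lower, 6 of 10 tested (LHX1, HES7, EOMES, MESP2, TBX3 and FOXH1), with a list median of -1.93. LHX1 (ENSMFAG00000001746), a LIM homeobox factor of the organizer and early mesoderm, was at 2.65, 0.164, 0.971, 1.07, 0, 5.69 and 7.75 CPM in the members of the 7 libraries and at 25.6, 23.2, 153, 119, 3.57, 21.8 and 107 CPM in MESP1-positive cells. LHX1 was lower in the members in all 7 libraries, and the ranges overlapped through wild-type Day 14 batch 2, where MESP1-positive cells held 1 UMI of LHX1. The log2 fold change was -4.78 ± 0.61 (adjusted p = 0.00263, edgeR).

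HES7, a factor of the segmentation clock, was at -3.31 ± 0.31, TBX3 at -1.74 ± 0.17 and MESP2 at -2.13 ± 0.33. EOMES was at 67.7, 52.9, 132, 70.5, 71.4, 43.6 and 66.5 CPM in MESP1-positive cells, against 2.62 to 47.6 CPM in the members, a difference of -2.38 ± 0.41 (adjusted p = 0.00933, edgeR). The EOMES call was lost without any of wild-type Day 10 batch 1, wild-type Day 12 batch 2, wild-type Day 14 batch 2, mutant Day 10 or mutant Day 12 batch 1 (adjusted p of 0.0114 to 0.0290, edgeR). FOXH1 (ENSMFAG00000040568) was at 103 to 324 CPM in members and 323 to 1037 CPM in MESP1-positive cells, lower in all 7 libraries by 1.49 on the log2 scale (SE 0.06, adjusted p = 1.70e-11, edgeR).

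GDF3 differed in the opposite direction to FOXH1 and TGFB1. It was higher in members than in MESP1-positive cells by 0.84 ± 0.20 (adjusted p = 0.00826, edgeR) and in 7 of 7 libraries, at 22.15 to 55.4 CPM against 11.6 to 41.2 CPM, while FOXH1 and TGFB1 (-1.35 ± 0.15) were lower. This call was lost with an epiblast score of at least 1.5 (adjusted p = 0.195, edgeR) and without any of wild-type Day 12 batch 2, wild-type Day 14 batch 1 or 2, or mutant Day 12 batch 1 (adjusted p of 0.0254 to 0.0467, edgeR). Of the NODAL and TGF-beta genes tested here, 1 was higher and 2 were lower of 5, with a median of -1.29.

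Of 12 tested CDX and HOX genes 9 were lower in the members (HOXB6, HOXB8, HOXB2, HOXD9, HOXB9, HOXA11, HOXD4, CDX2 and CDX1), with a median of -1.575. HOXB6 differed by -3.20 ± 0.17 (adjusted p = 6.67e-10, edgeR), HOXB8 by -2.63 ± 0.48, HOXB2 by -2.50 ± 0.20, CDX2 by -1.04 ± 0.15 and CDX1 by -0.90 ± 0.10. Of 8 tested WNT genes 4 were lower and 1 was higher, with a median of -1.20. The ligands WNT8A (-2.91 ± 0.41) and WNT3 (-1.69 ± 0.31), the receptor FZD4 (-2.48 ± 0.26) and the transporter of WNT proteins WLS (-0.61 ± 0.14) were lower, and the secreted antagonist SFRP2 was higher by 1.67 ± 0.29. With at least 3 UMIs of MIXL1 in both states, CDX1 was at 0.12 and WLS at 0.02 instead, neither of them called. CDX2 was then at -0.13 (adjusted p = 0.917, edgeR), HOXD4 at -0.29, HOXA11 at -0.54 and HOXD9 at -0.80. CDX2 was at -0.21 with cells thinned to 10000 UMIs (adjusted p = 0.579, edgeR).

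Several of these calls were lost in edgeR when 1 library was left out. They were WLS without either wild-type Day 10 library, wild-type Day 14 batch 2, mutant Day 10 or mutant Day 12 batch 1 (adjusted p up to 0.0583), SFRP2 without any wild-type Day 10 or Day 14 library or mutant Day 12 batch 1 (up to 0.0289), HOXB8 without either wild-type Day 14 library, mutant Day 10 or mutant Day 12 batch 1 (up to 0.0259), WNT8A without wild-type Day 10 batch 1, mutant Day 10 or mutant Day 12 batch 1 (up to 0.0124), HOXA11 without wild-type Day 12 batch 2, mutant Day 10 or mutant Day 12 batch 1 (up to 0.0148) and HOXB9 without wild-type Day 14 batch 1 or mutant Day 12 batch 1 (up to 0.0192).

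Among 9 tested BMP genes 3 were lower and the median was -0.94. BMP4, a ligand of mesoderm and amnion, was at 30.4, 15.6, 25.2, 34.0, 25.2, 36.6 and 45.4 CPM in the members and at 153, 126, 84.3, 125, 111, 292 and 237 CPM in MESP1-positive cells, with no overlap between the 2 states. The difference was -2.38 ± 0.15 (adjusted p = 1.93e-07, edgeR). TWSG1, an extracellular BMP modulator, differed by -1.84 ± 0.25 and MSX1 by -1.43 ± 0.27. MSX1 lost the call without wild-type Day 10 batch 1, Day 12 batch 2 or Day 14 batch 1, mutant Day 10 or mutant Day 12 batch 1 (adjusted p up to 0.0318, edgeR), and with at least 3 UMIs of MIXL1 it was at -0.35 (adjusted p = 0.990, edgeR). FGF17 was the 1 gene called of 7 FGF genes, at -3.20 ± 0.35.

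OVOL2 and CDH2 differed in opposite directions. CDH2, which encodes N-cadherin, was lower in the members by 2.45 on the log2 scale (SE 0.24, adjusted p = 6.15e-05, edgeR), at 1.80 to 40.8 CPM against 14.5 to 170 CPM. OVOL2, which keeps cells epithelial, was higher by 1.30 ± 0.14 (adjusted p = 4.09e-06, edgeR), at 40.1 to 99.9 CPM against 10.7 to 41.8 CPM. Of the 15 tested genes of the list 2 were higher (OVOL2 and the integrin ITGA6, which lost the call without wild-type Day 14 batch 1, adjusted p = 0.0131, edgeR) and 2 lower (CDH2 and HAS2), with a median of -0.24. Against MIXL1-negative cells OVOL2, at 24.5 to 138 CPM there, had a value of -0.04 ± 0.09 (adjusted p = 0.979, edgeR).

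Other genes that stood out within all 7 libraries were the retinoic acid hydroxylase CYP26A1 (-4.07 ± 0.36), PTGR1 (-3.56 ± 0.31) and LZTS1 (-3.09 ± 0.22), which were lower in members, and IRX2 (1.58 ± 0.28), RNASET2 (1.38 ± 0.18, an identifier that the study's tables also pair with AL159163.1), CAVIN2 (1.37 ± 0.19), EPHB6 (1.35 ± 0.16), SGK1 (1.34 ± 0.24), RHBDL1 and LOC101867369 (1.31 each, with SE of 0.27 and 0.18) and TTYH1 (1.30 ± 0.22), which were higher. SGK1 lost the call without wild-type Day 12 batch 2, wild-type Day 14 batch 1 or mutant Day 12 batch 1 (adjusted p up to 0.0243, edgeR) and LOC101867369 without mutant Day 12 batch 1 (0.0107). Of the list named by the study for transition cells, 5 of 18 tested genes were higher, with a median of 0.14, namely OVOL2, TRIML2 (1.02 ± 0.09), GDF3, the heme oxygenase HMOX1 (0.72 ± 0.11) and the mRNA cap methyltransferase RNMT (0.55 ± 0.08), and again this list was chosen on these samples.

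The number called here fell to 9 of 5693 genes when at least 3 UMIs of MIXL1 were required in both states, which left 4 libraries, and to 73 of 2705 with cells thinned to 10000 UMIs. With at least 3 UMIs the values were 1.42 for NANOG (adjusted p = 0.263, edgeR), -4.27 for LHX1 (adjusted p = 0.454, edgeR), -1.34 for BMP4 (adjusted p = 0.154, edgeR) and -1.34 for FOXH1 (adjusted p = 0.0129, edgeR). With an epiblast score of at least 1.5 in both states 154 genes were called, 132 of them among the 537. That setting left out 0 to 18 members per library. It also left out 101 of the 177 MESP1-positive cells of wild-type Day 14 batch 1 and left 2 such cells in mutant Day 10. NANOG (1.15), USP44 (1.58), OVOL2 (0.85), HOXB6 (-3.20), BMP4 (-2.25), FOXH1 (-1.11) and HES7 (-3.31) kept the call. GDF3 was at 0.43 (adjusted p = 0.195, edgeR), TFAP2C at 0.20 (0.701), TGFB1 at -0.67 (0.104), EOMES at -1.97 (0.0615), SGK1 at 0.83 (0.359) and CDX2 at -1.60 (0.131). In all, 31 of 49 named genes lost the call.

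**Figure D4:**
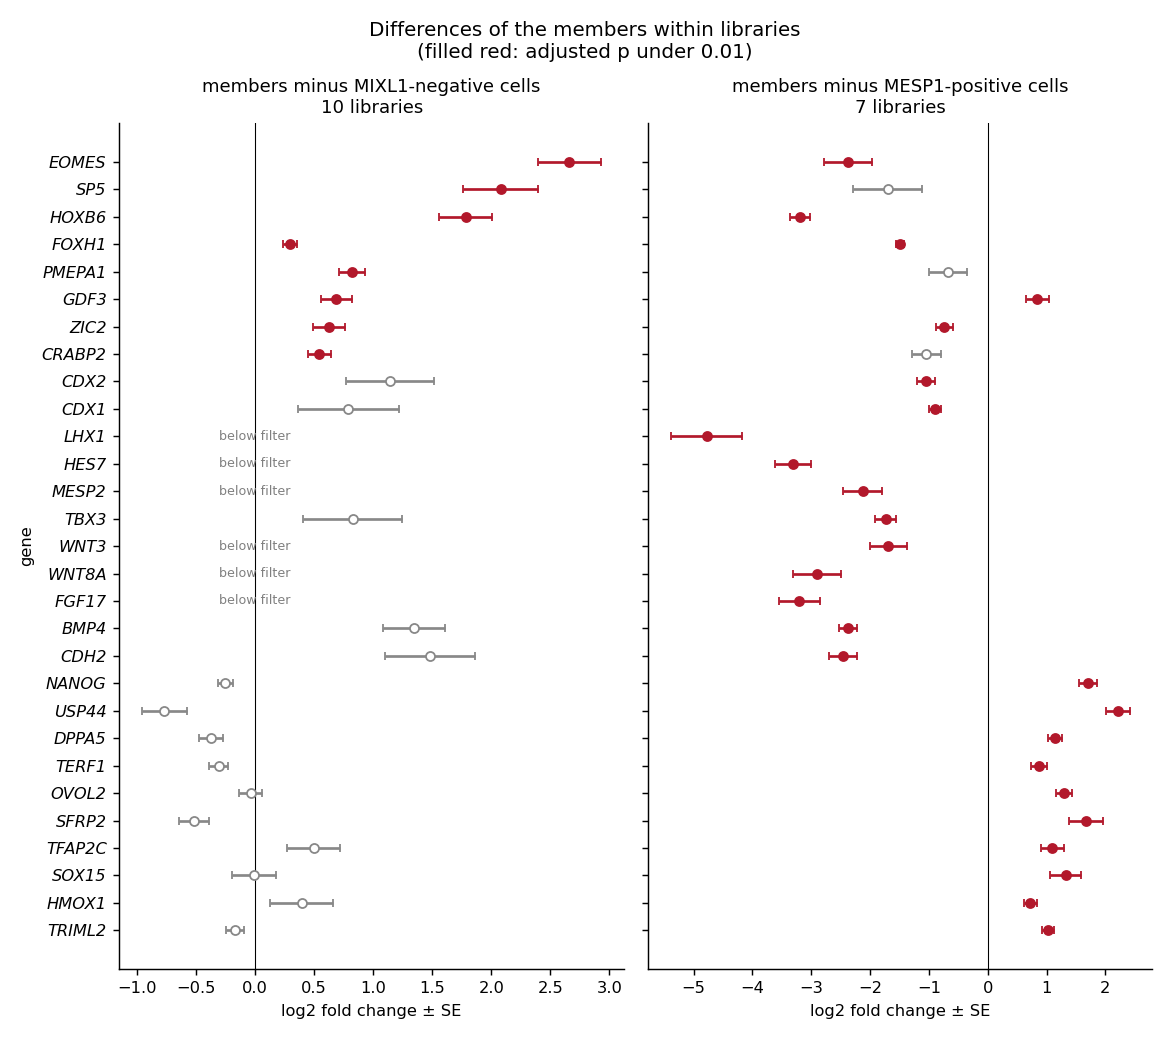
Log2 fold changes with SE (x axis) of listed genes (y axis), members minus MIXL1-negative cells in 10 libraries (left) and members minus MESP1-positive cells in 7 libraries (right); filled red points have an adjusted p under 0.01 (edgeR) and "below filter" marks genes not tested. EOMES is at 2.66 on the left and -2.38 on the right, GDF3 at 0.69 and 0.84, and NANOG at -0.25 and 1.71.

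Markers of other cell types were summed beside these results. The trophoblast, endoderm and mesenchyme lists include the genes that the rule used for these classes, and the germ cell list includes SOX17. Differences from the other classes in these sums were thus set in part by the rule and are no independent check. The summed level of 15 trophoblast genes was 143 to 1890 CPM in the members, highest in wild-type Day 10 batches 1 and 2 (1890 and 1255 CPM), against 9196 and 7169 CPM in the trophoblast-class cells of these 2 libraries and up to 22640 CPM in those of the others, and it was above that of MIXL1-negative cells in 1 of 10 libraries. For 13 amnion genes the sum was 393 to 1821 CPM, above MIXL1-negative cells in 6 of 10 libraries, and no amnion class was defined to set beside it. For 13 endoderm genes it was 1347 to 2971 CPM (above in 4 of 10), for 16 mesenchyme genes 92.4 to 247.5 CPM against 3140 to 16000 CPM in mesenchyme-class cells (above in 4 of 10), and for 8 germ cell genes 319 to 668 CPM (above in 5 of 10) beside 417 to 709 CPM in endoderm-class cells.

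No gene of these 5 lists was at 0 in the members of every library. Against MIXL1-negative cells no gene of these lists was called by edgeR or DESeq2, of 7 amnion genes (2 with an unadjusted p under 0.05), 5 trophoblast genes (1), 2 endoderm genes (1), 3 mesenchyme genes (0) and 5 germ cell genes (2). Against MESP1-positive cells TFAP2C, shared by the amnion, trophoblast and germ cell lists, was higher by 1.10 ± 0.19, as were the germ cell genes SOX15 (1.32 ± 0.26) and NANOG, and the endoderm gene APOE by 0.26 ± 0.05, with the SOX15 call lost without wild-type Day 10 batch 1 (adjusted p = 0.0121, edgeR). The summed germ cell level was lower in MESP1-positive cells than in the members in all 7 libraries (139 to 420 CPM). That sum includes NANOG, itself higher in the members in all 7 libraries, and was not computed without it. SOX17, an endoderm and germ cell factor that the rule used, was at 123 CPM in mutant Day 12 batch 2 and 94.1 CPM in mutant Day 14 batch 1 members and at 0 to 17.8 CPM in the other libraries. The part of these cells in the results was not tested.

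The share of MESP1-positive cells among MIXL1-positive epiblast-class cells without ISL1 was also lower in the mutant. On Day 10 it was 40.0% (exact binomial 95% interval, 27.0 to 54.1) in wild-type batch 1, 42.2% (32.8 to 52.04) in wild-type batch 2 and 15.8% (6.02 to 31.3) in the mutant. On Day 12 it was 14.3% (0.361 to 57.9) in wild-type batch 1, 47.1% (32.9 to 61.5) in wild-type batch 2, 30.8% (19.9 to 43.4) in mutant batch 1 and 6.67% (0.169 to 31.9) in mutant batch 2. On Day 14 it was 59.4% (53.6 to 65.0) in wild-type batch 1, 57.9% (33.5 to 79.7) in wild-type batch 2 and 8.33% (1.03 to 27.0) in mutant batch 1, while mutant batch 2 had 4 such cells and was left out. The wild-type Day 12 batch 1 share, of 7 cells, lay among the mutant values, and the other 5 wild-type shares lay above all mutant ones.

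The mean difference within days was -29.2 percentage points (two-sided exact permutation test over 10 libraries, p = 0.0370, where the smallest possible is 0.0185). Among libraries numbered batch 1 the difference was -19.6 points (exact permutation p = 0.5). Among those numbered batch 2 it was -40.4 points, where 1 day had both genotypes and no test was possible. With at least 3 UMIs of MIXL1 required it was -22.4 points (exact permutation p = 0.111). The direction then differed between days. Mutant Day 12 batch 1 was at 80.0%, above wild-type Day 12 batch 2 at 63.6%. Mutant Day 10 was at 45.5% against 83.3% and 82.9% in wild type, and mutant Day 14 batch 1 at 28.6% against 69.1% and 80.0%. Leaving out 8 of the 10 libraries in turn gave p above 0.05, up to 0.222 without mutant Day 14 batch 1, and wild-type Day 12 batch 1 and mutant Day 12 batch 1 were the exceptions. Without mutant Day 10 or mutant Day 14 batch 1 the smallest p that the remaining libraries allow is 0.0556. The mutant Day 10 library, whose share of cells with MIXL1 lay below that of its trophoblast-class cells, is among these, and the part of free RNA in this difference was not tested.

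Few genes were called between mutant and wild-type members, which does not show that few differed. The 15 stress and hypoxia genes tested had a median log2 fold change of 1.71 at Day 14 and 1.11 at Day 12. The 13 CDX and HOX genes tested had one of -6.2 at Day 14 and 0.60 at Day 12. The Day 14 value rests on 1 mutant library, where 3 UMIs correspond to 10.5 CPM. The 18 genes of that list summed to 52.3 CPM there, against 352 and 596 CPM in wild-type batches 1 and 2. Fitted changes of genes near the floor depend on the prior count, so -6.2 is no measure of size. At Day 12, 0 of the 13 had an unadjusted p under 0.05 (edgeR). Over all genes the medians were -0.06 and -0.04. At Day 14, 1 mutant library with 22 members against 2 wild-type libraries, 2 of 8697 genes were called (0.023%), and 3 were called at Day 12 (0.0345%) and for the mean of the days (0.0345%), 2 higher (0.023%) and 1 lower (0.0115%) in the mutant. The Day 14 count was 0 without wild-type Day 14 batch 1 (510 with an unadjusted p under 0.05, edgeR), 1 without batch 2, and 4 to 8 without either wild-type Day 10, wild-type Day 12 or mutant Day 12 library. The Day 12 count was 8 and 14, and the count for the mean of days 8 and 6, without wild-type Day 12 batch 1 or 2, and the latter was 6 without wild-type Day 10 batch 2. With a single mutant library at Day 10 and at Day 14, that library is assumed to vary like those of the other groups. NLRP2, a member of the NLRP family active in oocytes and early embryos, was the only called gene with a symbol. It was at 1183, 911, 386, 570, 198 and 306 CPM in the wild-type members and at 459, 234, 164 and 34.9 CPM in the mutant members, lower in the mutant within each day, with ranges that overlapped across days. For the mean of the days it fell by 1.77 on the log2 scale (SE 0.25, adjusted p = 0.00460, edgeR). This call was lost in 8 of 21 alternative settings, among them leaving out wild-type Day 14 batch 1 or 2, mutant Day 10, mutant Day 12 batch 1 or 2, or mutant Day 14 batch 1 (adjusted p of 0.0149 to 0.100, edgeR). NLRP2 was also at 106 to 1096 CPM in wild-type and 36.7 to 397 CPM in mutant MIXL1-negative cells of these libraries.

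The other 2 genes called for the mean of the days carry no symbol. ENSMFAG00000040719 was at 0, 0.164, 0, 0, 0.537 and 0 CPM in wild-type members and at 87.1, 195, 327 and 94.1 CPM in mutant members. ENSMFAG00000027138 was at 3.53, 1.15, 0, 1.94, 3.94 and 8.40 CPM and at 262, 516, 854 and 192 CPM. The groups did not overlap for either gene. In the mutant Day 14 batch 2 library, whose 3 members were too few for the fit, both were at 0, and in its trophoblast-class cells they were at 0.279 and 2.53 CPM, within the wild-type range of 0.207 to 0.698 and 1.18 to 5.20 CPM, while the other 4 mutant libraries were at 59.1 to 172 and 194 to 518 CPM there. The difference therefore follows libraries in trophoblast-class cells as well and is not particular to the members.

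A test of whether the contrast between members and MIXL1-negative cells differed between genotypes called 0 of 8385 genes in edgeR, with 185 at an unadjusted p under 0.05, and 0 in DESeq2. EOMES was higher in members in 3 mutant libraries (9.25, 15.5 and 31.4 CPM in members against 0.676, 3.79 and 2.11 CPM) and in 5 of 6 wild-type libraries, while in mutant Day 12 batch 2 the 9.09 CPM of the members came from 2 UMIs, under the floor of 3. A difference between genotypes that missed this threshold is not shown to be absent.

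Summed levels in wild-type members differed between Day 10 and Day 14, days on which the members were also of different makeup by their epiblast score. KHDC1L and DNMT3L, linked to the naive state, fell, and CRABP2 and VCAN, linked to the primed state, rose. Of 8697 genes 90 were called (1.03%), 28 higher (0.322%) and 62 lower (0.713%). Among genes with a symbol 46 of 817 were called. All 5 naive genes were tested and 2 fell, KHDC1L and DNMT3L, with a list median of -4.615 beside -0.01 over all genes. Of the 5 primed genes 2 rose, CRABP2 and VCAN, with a list median of 3.02. Both lists come from the study, which describes them with these samples, so they are not independent evidence of a direction.

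DNMT3L, a cofactor of DNA methylation in early and germ cells, was at 157 and 200 CPM in Day 10 members, 81.5 and 24.3 CPM at Day 12 and 6.08 and 12.6 CPM at Day 14. KHDC1L was at 702 and 887 CPM, 40.15 and 30.1 CPM, and 7.87 and 37.8 CPM. Day 10 and Day 14 libraries did not overlap for either gene. DNMT3L fell by 4.61 on the log2 scale (SE 0.66, adjusted p = 0.00414, edgeR) and KHDC1L by 5.87 (SE 0.80, adjusted p = 0.00992, edgeR). With the batch number as a block the adjusted p of KHDC1L was 0.0556 (edgeR), and its call was lost without most single libraries, while that of DNMT3L was lost without either wild-type Day 14 or either mutant Day 12 library (adjusted p of 0.0135 to 0.359, edgeR). Mutant members, which were not part of this comparison, were at 96.7, 52.04, 31.8 and 0 CPM for DNMT3L from Day 10 to Day 14 and at 286, 113, 31.8 and 0 CPM for KHDC1L.

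VCAN, the proteoglycan versican, was at 0.883 and 1.31 CPM at Day 10, 24.3 and 24.3 CPM at Day 12 and 56.9 and 50.4 CPM at Day 14. CRABP2 was at 29.6 and 12.9 CPM, 65.7 and 163.1 CPM, and 178 and 143 CPM. Both rose with no overlap between Day 10 and Day 14, by 5.52 ± 0.53 (adjusted p = 3.31e-05, edgeR) and 3.02 ± 0.46 (adjusted p = 0.00345, edgeR). VCAN lost the call without wild-type Day 14 batch 1 (adjusted p = 0.0379, edgeR), and CRABP2 with the batch number as a block (adjusted p = 0.0102, edgeR) and without wild-type Day 10 batch 2, either wild-type Day 14 library or either mutant Day 12 library (adjusted p of 0.0135 to 0.222, edgeR). VCAN was at 22.8, 34.3, 9.09 and 73.2 CPM in the mutant members.

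Beyond the lists, genes that rose included ITM2A (7.32 ± 0.88, from 0.883 and 0 CPM to 63.7 and 16.8 CPM), ADAMTS19 (4.94 ± 0.81), SCG5 (4.58 ± 0.65), the histone variant gene H2AFY2 (4.01 ± 0.58), LOC107128050 (3.98 ± 0.60), BEND5 (3.35 ± 0.61), the cardiac actin gene ACTC1 (3.03 ± 0.51), clusterin, CLU (2.98 ± 0.42) and NREP (2.96 ± 0.44). S100A14 fell by 9.66 (SE 0.84, adjusted p = 2.97e-05, edgeR), from 164 and 228 CPM to 0.179 and 0 CPM, LOC101865018 by 6.98, CD53 by 6.93, LOC102121218 by 5.02, S100A16 by 4.75, DAB2 by 4.55, CAVIN2 by 4.27, MT3 by 4.06, BRDT by 4.03 and DPRX by 3.47. Fitted changes against libraries at 0 rest on the prior count of the fit and are no bound.

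DSP, a desmosome gene, fell by 2.5 on the log2 scale (SE 0.47), and PGRMC1 and VSNL1, both in the study's transition list, rose by 2.39 ± 0.34 and 2.30 ± 0.39. Streak, WNT and BMP genes had medians of 1.14, 1.47 and 1.18, but edgeR called none of the 10, 11 and 9 tested, with 3, 7 and 3 at an unadjusted p under 0.05 and 1, 0 and 1 called by DESeq2. The trophoblast list, whose sum was 1890 and 1255 CPM at Day 10 and 159.5 and 143 CPM at Day 14, had a median of -2.43 with none of 8 called by edgeR (5 at an unadjusted p under 0.05, 1 by DESeq2). With an epiblast score of at least 1.5 in the members 45 genes were called between the days, 31 of them among the 90. S100A14 and LOC101865018 were then below the filter, S100A16 was at -0.47 (adjusted p = 0.897, edgeR) and DSP at -1.14 (0.390). BEND5, ACTC1 and VSNL1 lost the call (adjusted p of 0.0108 to 0.0255, edgeR). KHDC1L (-5.94), DNMT3L (-4.64), MT3 (-4.75), VCAN (5.05), CRABP2 (2.79) and ITM2A (6.87) kept it, and DAB2 did at -2.79. DNMT3L was at 164 and 182 CPM in the low-score and 152 and 205 CPM in the other members of Day 10, while DSP was at 249 and 337 CPM against 24.6 and 56.9 CPM.

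The number of calls varied with the libraries. Without wild-type Day 14 batch 1, which leaves 1 Day 14 library of 8 members, edgeR gave 0 calls (733 with an unadjusted p under 0.05), while the fold changes of S100A14 and VCAN were -11.32 and 5.31 on the log2 scale there. Over all alternatives run they ranged from -11.32 to -6.35 and from 3.59 to 5.83. The smallest change of S100A14 among fits that tested it came with the epiblast score leading by at least 0.5, and the smallest of VCAN with cells thinned to 10000 UMIs (adjusted p = 0.349, edgeR). Ranges were -5.55 to -2.05 for BRDT, -8.48 to -3.05 for DPRX, -5.47 to -2.70 for LOC102121218, -3.27 to -1.14 for DSP, -5.81 to -0.47 for S100A16, -4.75 to -2.79 for DAB2, 2.49 to 4.72 for H2AFY2, 2.15 to 4.23 for BEND5, 1.75 to 3.37 for CLU, 1.94 to 3.67 for CRABP2 and 1.86 to 3.18 for NREP, and none of the genes named here changed direction. BEND5, DPRX and DSP lost the call without any wild-type Day 10 or Day 14 library or either mutant Day 12 library, and of the other genes named here each lost it without wild-type Day 14 batch 1 (edgeR). That was the only such library for S100A14, VCAN, ITM2A, CD53 and LOC101865018. ACTC1 and VSNL1 also lost the call without either wild-type Day 10 or either mutant Day 12 library. The same held for DAB2 and LOC107128050 without wild-type Day 10 batch 2, wild-type Day 14 batch 2 or either mutant Day 12 library, and for SCG5 without either wild-type Day 10 library or wild-type Day 14 batch 2. CAVIN2 lost it without wild-type Day 14 batch 2 or either mutant Day 12 library, and ADAMTS19 without wild-type Day 10 batch 2 or Day 14 batch 2. H2AFY2 lost it without wild-type Day 10 batch 2 or mutant Day 12 batch 2, and NREP without either wild-type Day 10 library. S100A16 and MT3 lost it without wild-type Day 14 batch 2, CLU and PGRMC1 without wild-type Day 10 batch 2, and BRDT and LOC102121218 without wild-type Day 10 batch 1. Counts were 45 and 43 without Day 10 batch 1 or 2, 34 without Day 14 batch 2, and 243 and 218 without Day 12 batch 1 or 2, which enter through the shared estimate of spread, as do the mutant Day 12 libraries (41 and 36). Asking for the epiblast score to lead by at least 0.5 left 30 calls, 28 of them among the 90.

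**Figure D5:**
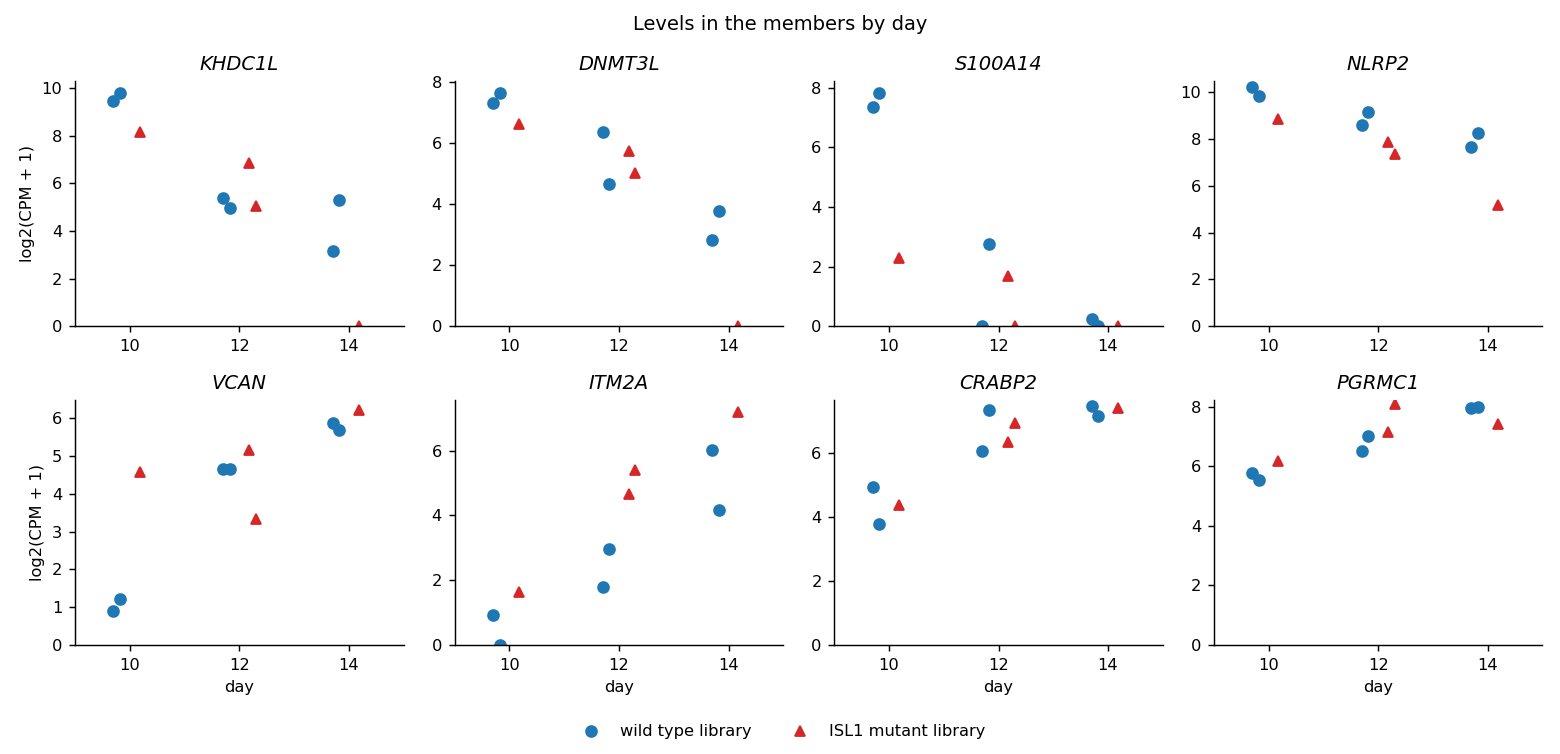
Levels of 8 genes in the members (y axis, log2(CPM + 1)) by day (x axis), each point a library with at least 5 members, circles wild type and triangles ISL1 mutant. KHDC1L, DNMT3L and S100A14 go down from Day 10 to Day 14 in wild type, from 702 and 887 to 7.87 and 37.8 CPM for KHDC1L and, for S100A14, from Day 10 levels that lay mostly in the members with an epiblast score under 1.5, and VCAN, ITM2A, CRABP2 and PGRMC1 go up.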

How the data were processed

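The authors aligned reads of 10x Genomics v3 libraries with Cell Ranger 3.1.0 to the Ensembl annotation of Macaca_fascicularis_5.0, kept cells within limits of gene number and mitochondrial reads, and subtracted ambient RNA by SoupX. The deposited corrected values are expected counts, whole UMI numbers per gene and cell after that subtraction, and the deposited uncorrected values are raw counts, used as an alternative. The deposited matrices hold these unscaled numbers, and scaled values that the authors made from them for their own tests and plots were not used here.

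The members and the 19 gene lists were chosen with earlier results of these data known. Symbols came from the study's supplementary tables, which pair 1019 of 19367 identifiers, so named genes lean to genes the study reported; 24 listed genes, among them NODAL, LEFTY1, LEFTY2, SOX2, CDH1, TBX6 and SNAI1, had no single identifier there and are not analysed here. Genome positions are not given here, and results for some genes are not reported here.

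UMIs were summed per library and state, libraries with fewer than 5 cells of a state were left out, and sums were tested with edgeR 4.0.16 in R 4.3.3 (TMM, filterByExpr, robust quasi-likelihood F tests, both directions, adjusted by Benjamini-Hochberg over all genes tested, false discovery rate 1%), with the library as a block within libraries and genotype and day as groups otherwise. Each SE of a log2 fold change was derived as the size of the change divided by the square root of its F statistic. The corrected counts needed no rounding. DESeq2 1.42.0 was an alternative. The fits were tested on simulated data. Named genes are list members and, per comparison, up to 12 genes with a symbol in each direction that passed and moved the same way in every library, or did not overlap between groups. Shares were compared by exact permutation of genotype within day. No doublet caller was run; an alternative left out cells above 2 times the median UMI count of the epiblast-class cells of their library, which concerned 31 members, and another, chosen after the scores were seen, those with an epiblast score under 1.5. Batch numbers 1 and 2 pair the libraries of a genotype across days per the labels, which do not say whether they are shared by both genotypes. Fits with the batch number as a block treated equal numbers as 1 batch in both genotypes. Log levels of same-numbered libraries did not deviate together (correlations from -0.146 to 0.102 between groups). 7 cells whose epiblast score tied with another were not members.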

Additional observations from a re-analysis of the deposited data

How the results depend on the processing

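The numbers of genes called moved by over 1.5 times as follows, in the order members against MIXL1-negative cells, members against MESP1-positive cells, mutant against wild type at Day 14, at Day 12 and for the mean of days, and wild-type Day 14 against Day 10 (78, 537, 2, 3, 3 and 90 as reported). Without the filter on low counts they were 380, 1039, 26, 28, 33 and 394, with 1 for the difference between genotypes and 212 for members by MIXL1 level. With cells thinned to 10000 UMIs they were 139, 73, 4, 9, within 1.5 times for the mean of days, and 15, with 1 for the difference between genotypes. With DESeq2 the Day 14 count was 4, that for the mean of days 6 and that by MIXL1 level 61. At least 3 UMIs of MIXL1 gave 171 and 9 for the 2 within-library comparisons and left too few libraries for the comparisons between groups. A lead of the epiblast score of 0.5 gave 204 against MIXL1-negative cells and 30 between days. At least 20 cells per library gave 43 against MIXL1-negative cells, 0 at Day 14 (743 at an unadjusted p under 0.05), 0 at Day 12 (721) and 21 between days. Without the library block 0 and 65 genes were called within libraries. Only members with 1 UMI of MIXL1 gave 0 and leaving out both wild-type Day 14 libraries gave 24 against MIXL1-negative cells, both chosen after seeing the data. An epiblast score of at least 1.5, also chosen after seeing the data, gave 154 genes against MESP1-positive cells, 6 at Day 14 and 45 between days, and a difference in the share of members of -12.5 points (exact permutation p = 0.0741).

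The replicate block, with batch number as the block, gave 5 genes at Day 14, 2 at Day 12, 3 for the mean of days and 72 between days, so it moved only the Day 14 count by over 1.5 times. Leaving out each library in turn gave 35 to 113 genes against MIXL1-negative cells, 370 to 537 against MESP1-positive cells, 0 to 8 at Day 14, 2 to 14 at Day 12, 2 to 8 for the mean of days, 0 to 243 between days, 0 to 0 for the difference between genotypes and 3 to 46 by MIXL1 level. The difference in the share of members was -3.21 points with at least 3 UMIs (exact permutation p = 0.296), -16.9 and -7.89 among libraries numbered batch 1 and batch 2, and -16.2 to -8.49 on leaving out libraries (exact permutation p from 0.0185 to 0.0741). That in the share of MESP1-positive cells was -22.4 points with at least 3 UMIs (exact permutation p = 0.111), -19.6 and -40.4 among libraries numbered batch 1 and batch 2, and -34.7 to -18.6 on leaving out libraries (exact permutation p from 0.0370 to 0.222). The causes were not tested.

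Of 2562 values of named genes under alternatives, 1987 kept direction and side of the threshold, 570 kept direction and lost the call, and 5 reversed, all against MESP1-positive cells: WLS at 0.023, CDX1 at 0.12 and SKA1 at 0.11 with at least 3 UMIs, and DUT at 0.055 and SKA1 at 0.028 with thinned cells. Counting intervals cover counting error only. Members number 3 to 121 per library, so a missed call is not evidence of no difference, and batch, depth and genotype cannot be told apart where the mutant has 1 library per day.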

Other observations

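In the uncorrected counts 379 cells met the rule, and 373 were members in both matrices. Of 209 cells found in the uncorrected matrix alone, 10 were epiblast-class and 1, from a mutant library, met the rule. Stress and hypoxia genes such as FOS, DDIT4 and BNIP3 were summed over 15 genes, and the sum was 1520 to 3374 CPM in wild-type and 2035 to 6060 CPM in mutant members, highest in mutant Day 12 batch 2 and Day 14 batch 1 (6060 and 5006 CPM), where MIXL1-negative cells stood at 5431 and 5065 CPM. Members were above MIXL1-negative cells in 7 of 10 libraries. The summed level of 9 mitochondrial genes ran from 31650 CPM in wild-type Day 14 batch 1 to 82040 CPM in wild-type Day 10 batch 2 and was above MIXL1-negative cells in 5 of 10 libraries.

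Cell cycle genes summed to 2967 to 4330 CPM over 17 genes in the members, above MIXL1-negative cells in 8 of 10 libraries and above MESP1-positive cells in 6 of 7. Against MESP1-positive cells HELLS (0.81 ± 0.09), which acts in chromatin remodelling, was higher in the members, and SKA1 (-1.09 ± 0.18) and DUT (-0.31 ± 0.07) were lower, by edgeR. With at least 3 UMIs of MIXL1 in both states SKA1 was at 0.11 and DUT at -0.05, and with cells thinned to 10000 UMIs they were at 0.03 and 0.05, none of these called. DUT also lost the call without either wild-type Day 10 library (adjusted p up to 0.0137, edgeR).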
